A study of Mus musculus with 58 samples.

Results

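The colony-stimulating factors and their receptors form a small family that was followed here through every library of the study. Its 6 members were taken by symbol from the deposited count tables: the ligands Csf1 and Il34, their shared receptor Csf1r, the GM-CSF receptor subunits Csf2ra and Csf2rb, and the G-CSF receptor Csf3r. All 6 of 24940 listed genes were present in the age series, and 5 of 10277 and 5 of 10589 in the tables of the antisense experiments, which do not list Il34.

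CSF1 and IL-34 are secreted ligands that bind and activate the receptor tyrosine kinase CSF1R, on which microglia depend for survival and renewal. In the brain IL-34 is made mainly by neurons, whereas CSF1 comes largely from glia, microglia among them. GM-CSF and G-CSF act through other receptors: CSF2RA binds GM-CSF and signals with the beta common chain CSF2RB, which the receptors for IL-3 and IL-5 share, while CSF3R acts as a homodimer and is best known from the neutrophil lineage.

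PolyA RNA was sequenced from forebrain microglia of C57BL/6 mice, sorted for DAPI exclusion, CD11b, low CD45 and CX3CR1. In 58 libraries and 13 groups, the study set wild-type (WT) animals beside SgshKO animals, which lack Sgsh, the gene of a lysosomal sulfamidase that degrades heparan sulfate. The age series held 3 WT and 4 SgshKO libraries at 3 weeks, 2 and 2 at 4 months, and 4 and 7 at 8 months, with no treatment given in the labels. Antisense oligonucleotides (ASOs), short strands that lower a chosen transcript, were injected once into the cerebral ventricles, and the cells were taken 14 days later from mice whose age the labels do not state. WT mice received PBS, an ASO labelled ntc, or an ASO to Mitf, Tfeb or Tfe3 (4 libraries each), and SgshKO mice received ntc or the Mitf and Tfe3 ASOs together (8 libraries each). Mitf, Tfeb and Tfe3 encode related transcription factors known for control of lysosomal genes. The ASO titles carry a number called grp, from 1 to 4 in WT and 1 or 2 in SgshKO. Nothing in the labels says that libraries came from separate animals, so p-values measure only the spread between these libraries.

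Depth ran from 8191508 to 27106584 counts per library in the age series, from 14372015 to 30378870 in the WT and from 12517838 to 30431437 in the SgshKO ASO set. Values below are CPM, counts scaled to library size with TMM factors within 1 table, and are not compared across tables. Sgsh kept 80.1%, 75.9% and 60.0% of its WT level in SgshKO at the 3 ages and so does not check the genotype labels. In WT mice the targets were at 3.61% (Mitf), 10.6% (Tfeb) and 19.2% (Tfe3) of the ntc level, and in SgshKO mice the combination left 21.1% of Mitf and 47.2% of Tfe3. All 10 microglia markers were detected in all 6 age groups, and their sum was lower in SgshKO at each age. At 3 weeks it was 40191 to 42003 CPM in WT and 36184 to 38697 CPM in SgshKO. The 4-month sums were 33175 and 37598 CPM in WT and 23798 and 27336 CPM in SgshKO. At 8 months they were 29695 to 36398 CPM in WT and 25396 to 27825 CPM in SgshKO. Transcripts of other cells were present too: 15 neutrophil markers summed to 1.68 to 13.1 CPM in WT and to 2.03 to 32.2 CPM in SgshKO at 3 weeks, but to 3148 and 15392 CPM in SgshKO at 4 months and 456 to 6119 CPM at 8 months. WT replicate 4 at 8 months stood apart from its group, with the highest Csf2ra and Csf2rb and with 975 CPM of Socs3 and 45.8 CPM of Pim1, against 189 to 429 and 4.86 to 7.27 CPM in the other 3. In sorted bulk samples, fewer cells of a type and less RNA per cell cannot be told apart.

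Promoter sequences from RefSeq for GRCm38.p6 are shown for 3 members, each called higher in SgshKO than in WT at 8 months. Csf1r, called lower at that age, was left out of the motif search, so raised and lowered members were not compared. Each is the 250 bases before the annotated start, written 5′ to 3′ on the gene's strand. Capitals mark GAGGAA, the core of the purine-rich box bound by PU.1, the myeloid factor encoded by Spi1. This motif was chosen after the sequences were seen.
Csf1, minus strand, chr3:107760470-107760719: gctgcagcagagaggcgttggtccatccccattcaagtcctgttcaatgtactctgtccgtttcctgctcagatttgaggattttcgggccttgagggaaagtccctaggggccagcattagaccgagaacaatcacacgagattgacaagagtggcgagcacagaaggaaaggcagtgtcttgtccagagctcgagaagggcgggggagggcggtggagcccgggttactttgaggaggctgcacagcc
Csf2ra, minus strand, chr19:61228419-61228668: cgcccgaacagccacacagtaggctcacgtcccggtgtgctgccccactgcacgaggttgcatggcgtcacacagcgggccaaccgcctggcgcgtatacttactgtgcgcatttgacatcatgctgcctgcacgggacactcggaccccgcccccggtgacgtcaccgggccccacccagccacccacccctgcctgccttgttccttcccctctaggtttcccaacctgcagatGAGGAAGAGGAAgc
Csf3r, plus strand, chr4:126024409-126024658: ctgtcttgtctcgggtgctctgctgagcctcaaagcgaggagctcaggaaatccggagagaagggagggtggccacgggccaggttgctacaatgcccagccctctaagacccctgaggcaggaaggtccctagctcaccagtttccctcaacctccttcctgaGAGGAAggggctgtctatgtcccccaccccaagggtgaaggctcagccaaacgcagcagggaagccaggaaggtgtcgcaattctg
GAGGAA, searched on both strands, lay 8 to 3 and 14 to 9 bases before the start of Csf2ra and 86 to 81 bases before that of Csf3r, and was not in the Csf1 window. It occurs in 23.3% of 32851 promoter windows of this length. CACGTG and CATGTG, the core letters of the E-box and M-box that MITF, TFEB and TFE3 bind, occur in 6.02% and 12.3% of windows, and neither was in any of the 3 shown. AGGAAGT, a longer PU.1-type site held by 7.69% of windows, was not in them either. These are letter matches and say nothing of binding.

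Levels between genes were set side by side in TPM, which corrects for transcript length. The deposited TPM values of the listed genes summed to 546451 to 570026 per library, short of the per-million scale. Csf1r, on chromosome 18 (61105572 to 61131139), was among the most abundant transcripts of the age series, from 2739 to 5826 TPM and between rank 4 and rank 19 of 24940 genes across libraries. Csf3r followed at 312 to 485 TPM (ranks 101 to 180), then Csf2ra at 80.9 to 231 TPM and Csf2rb at 53.4 to 108 TPM. Csf1 ran from 11.0 to 132 TPM, and moved between rank 7336 and rank 562. Il34 did not exceed 0.183 TPM.

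Csf1, the ligand, was higher in SgshKO at all 3 ages, with a larger excess at the later ages. At 3 weeks WT libraries had 69.5, 57.8 and 78.0 CPM of Csf1, and SgshKO libraries 169, 141, 157 and 146 CPM. At 4 months the WT values were 32.5 and 31.5 CPM, against 256 and 195 CPM in SgshKO. At 8 months WT had 45.0, 29.8, 51.1 and 52.6 CPM, and the 7 SgshKO libraries ran from 281 to 389 CPM with a median of 309 CPM. Every SgshKO library lay above every WT library of the series, whatever its age. Of all genes tested, 22.5%, 58.1% and 25.2% had genotypes that did not overlap at 3 weeks, 4 months and 8 months. Ordered by group mean, Csf1 was at 326 ± 42.0 CPM in SgshKO at 8 months, 226 ± 43.4 CPM at 4 months and 153 ± 12.6 CPM at 3 weeks (SD), then 68.4 ± 10.1 CPM in WT at 3 weeks, 44.6 ± 10.4 CPM at 8 months and 32.0 ± 0.722 CPM at 4 months, and of these neighbours the last pair alone overlapped.

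The Csf1 difference passed edgeR's quasi-likelihood test with Benjamini-Hochberg adjustment at each age. The log2 fold change was 1.16 ± 0.16 at 3 weeks (SE, adjusted p = 1.08e-05), 2.82 ± 0.22 at 4 months (adjusted p = 1.41e-09) and 2.87 ± 0.14 at 8 months (adjusted p = 5.99e-14), or 2.24-, 7.05- and 7.32-fold. All genes tested gave 9.03%, 19.5% and 40.5% called at these ages, beside 2, 3 and 4 of the 5 members tested. The excess itself grew with age: it was larger by 1.65 ± 0.26 on the log2 scale at 4 months than at 3 weeks (adjusted p = 0.000699, 2.52% of genes called) and by 1.71 ± 0.20 at 8 months (adjusted p = 2.72e-06, 9.25% of genes called). Between 8 and 4 months it differed by 0.05 (interval -0.44 to 0.55, adjusted p = 0.963, 0.391% of genes called).

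Both genotypes contributed to that widening. In SgshKO Csf1 rose from 3 weeks to 8 months by 1.09 ± 0.13 (SE, adjusted p = 5.62e-07), where 30.6% of genes were called. In WT it fell by 0.62 on the log2 scale (SE 0.15, adjusted p = 0.0117), where 7.65% of genes were called. The WT call was lost without replicate 3 at 3 weeks, the highest WT library at that age (adjusted p = 0.0992).

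**Figure D1:**
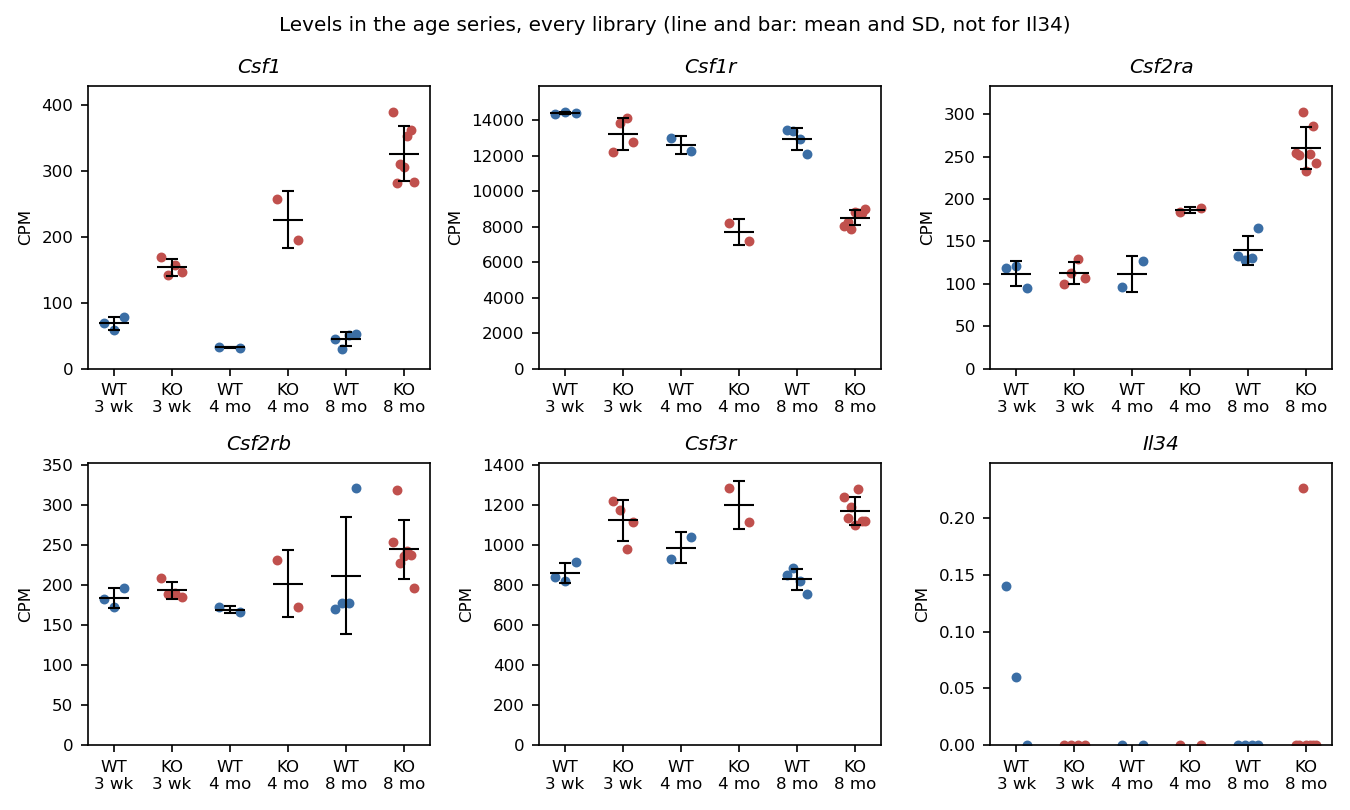
CPM of the 6 members in every library of the age series, by genotype and age, with blue for WT, red for SgshKO (KO) and, except for Il34, a line and bar for mean and SD. Csf1 is higher in SgshKO at each age, Csf1r is lower in SgshKO at 4 and 8 months, and Il34 is at or near 0 in all libraries.

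Il34, the other ligand of CSF1R, was barely detected. It had 2 and 1 counts in 2 WT libraries at 3 weeks and 6 counts in SgshKO replicate 3 at 8 months, or 0.227 CPM, and 0 counts in the other 19 libraries. A count of 0 allows up to 3 counts, which is 0.110 to 0.367 CPM over these libraries and covers counting error only. Markers of neurons, the main known source of IL-34, summed to 10.3 to 31.4 CPM in the age series. Il34 did not enter a test. Of the ligands of the other receptors, Csf2 (GM-CSF), Il3 and Il5 had 0 counts in all 22 libraries, and Csf3 (G-CSF) had at most 0.489 CPM.

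Csf1r, the receptor for both ligands, moved opposite to Csf1. At 3 weeks it had 14349, 14486 and 14408 CPM in WT and 12240, 13839, 14154 and 12761 CPM in SgshKO. WT libraries had 12987 and 12241 CPM at 4 months, against 8205 and 7169 CPM in SgshKO. At 8 months WT had 13425, 13391, 12936 and 12092 CPM, and SgshKO ran from 7870 to 8979 CPM with a median of 8784 CPM. The genotypes did not overlap at any age, as held for 22.5%, 58.1% and 25.2% of all genes in age order. At 3 weeks the nearest libraries were close. In order of group means, WT at 3 weeks was highest (14414 ± 68.5 CPM, SD, n = 3), and SgshKO at 3 weeks, WT at 8 months and WT at 4 months followed, each overlapping the next. SgshKO at 8 months (8516 ± 439 CPM, n = 7) and at 4 months (7687 ± 733 CPM, n = 2) lay below these and overlapped each other.

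The fall of Csf1r was called at 4 months (log2 fold change -0.71 ± 0.09, SE, adjusted p = 2.74e-06) and 8 months (-0.61 ± 0.05, adjusted p = 2.66e-09), by edgeR with Benjamini-Hochberg adjustment. At 3 weeks the value was -0.12 (interval -0.26 to 0.02, adjusted p = 0.358). The effect differed from that at 3 weeks by -0.59 ± 0.11 at 4 months (adjusted p = 0.00455) and by -0.48 ± 0.09 at 8 months (adjusted p = 0.000692). In SgshKO Csf1r fell from 3 weeks to 8 months by 0.64 on the log2 scale (SE 0.05, adjusted p = 3.84e-09), while in WT the change was -0.15 (adjusted p = 0.187). Of 10 other microglia markers, 2, 5 and 6 were called lower in SgshKO at the 3 ages, and 0, 0 and 3 higher. Among all genes, 9.03%, 19.5% and 40.5% were called in either direction. The part of these markers in the Csf1r result was not tested.

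Csf2ra, the ligand-binding chain of the GM-CSF receptor, was level at 3 weeks and higher in SgshKO later. Its 3-week values were 119, 121 and 95.4 CPM in WT and 99.5, 113, 130 and 107 CPM in SgshKO, so the genotypes overlapped. At 4 months WT had 96.1 and 127 CPM and SgshKO 185 and 190 CPM. At 8 months WT had 133, 129, 130 and 166 CPM and SgshKO 233 to 303 CPM, with a median of 253 CPM. At the later ages no SgshKO library fell within the WT range, and 58.1% and 25.2% of all genes had genotypes that did not overlap. SgshKO at 8 months was highest, SgshKO at 4 months followed with no overlap, and the other 4 groups overlapped their neighbours in order.

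The rise of Csf2ra was 0.75 ± 0.16 at 4 months (log2, SE, adjusted p = 0.00118, edgeR) and 0.90 ± 0.10 at 8 months (adjusted p = 7.22e-08), against 0.00 at 3 weeks (interval -0.24 to 0.25). The genotype effect was larger at 8 months than at 3 weeks by 0.90 ± 0.15 (adjusted p = 0.000314). At 4 months the gain over 3 weeks was 0.75 ± 0.20 (adjusted p = 0.0394), but the replicate block ended that call (adjusted p = 0.0762), as did TPM (0.0535), and 9 of the fits without 1 library gave adjusted p up to 0.255. In SgshKO Csf2ra rose from 3 weeks to 8 months by 1.22 ± 0.10 (adjusted p = 2.25e-09), and in WT the change was 0.31 (adjusted p = 0.112). Markers of other myeloid cells also differed between genotypes. Those of monocytes summed to 11.8 to 28.2 CPM over the WT libraries and 8.60 to 16.3 CPM in SgshKO at 3 weeks, but to 401 and 1574 CPM at 4 months and 79.2 to 570 CPM at 8 months, with 0, 4 and 6 of 10 called higher and none lower at the 3 ages. Of 9 border macrophage markers tested, 0, 2 and 7 were called higher and none lower. Beside both lists, 9.03%, 19.5% and 40.5% of all genes were called in either direction at the 3 ages. The sum over the list of 10 border macrophage markers was already apart at 3 weeks, with 65.6 to 85.0 CPM in WT and 94.0 to 121 CPM in SgshKO. At 8 months it was 20.5 to 38.8 CPM in WT and 86.4 to 135 CPM in SgshKO. The part of these cells in the Csf2ra and Csf1 results was not tested.

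Csf2rb, the beta common chain, did not pass the test between genotypes at any age. WT libraries had 182, 172 and 196 CPM at 3 weeks, 172 and 166 CPM at 4 months, and 170, 177, 177 and 321 CPM at 8 months. SgshKO libraries had 209, 189, 190 and 185 CPM, then 231 and 172 CPM, and at 8 months 196 to 318 CPM with a median of 237 CPM. WT replicate 4 and SgshKO replicate 2 at 8 months stood above the rest of their groups. Neighbouring groups overlapped except the lowest pair, WT at 3 weeks and WT at 4 months.

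At 8 months the Csf2rb log2 fold change was 0.21 (interval -0.08 to 0.50, adjusted p = 0.238, edgeR). Without WT replicate 4 it was 0.45 and passed (adjusted p = 0.00147), and without both high libraries it was 0.41 (adjusted p = 0.000605). Csf2rb2, a close copy on the same chromosome 15 whose product pairs with the IL-3 receptor chain, went the other way, from 173 ± 69.4 CPM (SD, n = 4) in WT to 122 ± 30.6 CPM (SD, n = 7) in SgshKO. Its value was -0.50 ± 0.17 (adjusted p = 0.0196), lost under the replicate block (adjusted p = 0.183) and without WT replicate 4 (adjusted p = 0.226). Reads of the 2 copies may have been split between them, and their summed counts changed by -0.10 at 8 months (adjusted p = 0.636), so both genes are reported as uncertain.

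Csf3r, the G-CSF receptor, was higher in SgshKO at 3 weeks and 8 months. At 3 weeks WT had 841, 822 and 915 CPM and SgshKO 1220, 1174, 982 and 1116 CPM. The 4-month values were 932 and 1042 CPM in WT and 1284 and 1114 CPM in SgshKO. At 8 months WT had 849, 884, 822 and 757 CPM, and SgshKO 1102 to 1282 CPM with a median of 1136 CPM. The genotypes did not overlap at any of the ages, as held for 22.5%, 58.1% and 25.2% of all genes in age order. The 3 SgshKO groups overlapped one another and held the highest means, from 1123 to 1199 CPM, and SgshKO at 3 weeks also overlapped WT at 4 months.

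The Csf3r difference was 0.39 ± 0.09 at 3 weeks (log2, SE, adjusted p = 0.00341, edgeR), 0.28 ± 0.11 at 4 months (adjusted p = 0.0799) and 0.50 ± 0.07 at 8 months (adjusted p = 3.52e-06). DESeq2 called the 4-month difference (adjusted p = 0.0266). Without WT replicate 4 at 8 months, the 8-month value was 0.43 (adjusted p = 7.01e-05). No change of the effect between ages passed, and in neither genotype did Csf3r change from 3 weeks to 8 months (0.06 in SgshKO and -0.05 in WT). Neutrophil markers moved with genotype at the later ages, with 0, 13 and 15 of 15 called higher in SgshKO at the 3 ages. Among all genes, 9.03%, 19.5% and 40.5% were called in either direction. At 3 weeks, where Csf3r was called, the sum of the neutrophil markers was 1.68 to 7.51 CPM in WT and 2.03 to 32.2 CPM in SgshKO. At 8 months it spanned 456 to 6119 CPM in SgshKO, and Csf3r was at 1102 to 1282 CPM. The part of neutrophil transcripts in the Csf3r difference was not tested.

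**Figure D2:**
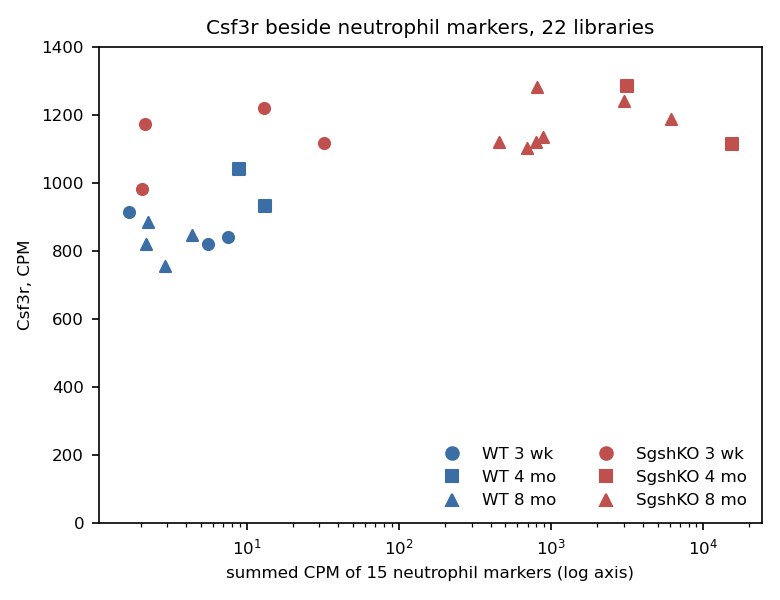
CPM of Csf3r against the summed CPM of 15 neutrophil markers on a log axis, 1 point per library of the age series, with blue for WT and red for SgshKO and a symbol per age. SgshKO libraries at 3 weeks have Csf3r levels of 982 to 1220 CPM at neutrophil sums of 2.03 to 32.2 CPM.

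The other genes of the family and its signalling were described from fixed lists by count and median. Of 9 further ligand, receptor and partner genes 4 were tested, and Il3ra, the IL-3 binding chain, was the one called at all 3 ages. WT libraries had 3.63 to 4.42 CPM of Il3ra at 3 weeks and 1.60 to 5.39 CPM at 8 months, against 6.08 to 9.39 CPM and 18.4 to 27.9 CPM in SgshKO. The rise on the log2 scale was 0.98 ± 0.27 at 3 weeks, 2.12 ± 0.37 at 4 months and 2.68 ± 0.24 at 8 months (edgeR, adjusted p of 0.0206, 0.000182 and 1.75e-09). Its 3-week call was lost under the replicate block (adjusted p = 0.0637) and without WT replicate 2 or 3 or SgshKO replicate 3 or 4 (0.0583 to 0.0876).

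Of 30 genes of CSF1R signalling, 2 were called higher and 5 lower in SgshKO at 3 weeks, 2 and 6 at 4 months, and 8 and 10 at 8 months, where 9.03%, 19.5% and 40.5% of all genes were called in either direction. Their median log2 fold changes were 0.02, -0.03 and 0.03, against -0.02, 0.02 and 0.02 over all genes tested. Tyrobp, an adaptor that couples to CSF1R and TREM2 signalling, rose by 0.74, 1.13 and 1.52 at the 3 ages (adjusted p = 0.000611, 6.60e-05 and 2.16e-10). Fyn, a Src-family kinase, fell at each age, with log2 fold changes of -1.01, -1.38 and -1.50 (adjusted p = 0.00111, 0.00110 and 5.27e-08). Pik3r1, a regulatory subunit of PI3-kinase, was called at 4 months (-0.71) and 8 months (-1.07), and Ccnd1, a cyclin, at 3 weeks was at -0.66.

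A list of 16 genes covered JAK-STAT signalling of the GM-CSF receptor and of related receptors, set beside the same shares of all genes. Of these 16, 0 were called higher and 1 lower at 3 weeks, 1 and 1 at 4 months, and 2 and 7 at 8 months. Their medians were -0.06, -0.13 and -0.28. Il2rg, the gamma common chain of a related receptor family, was the only gene of the list called higher at 4 months. It rose by 3.00 ± 0.35 at 4 months (SE, adjusted p = 8.85e-07, edgeR) and 3.23 ± 0.23 at 8 months (adjusted p = 4.52e-11). Sh2b3, an adaptor that restrains JAK signalling, had log2 fold changes of -0.39 at 3 weeks and -0.77 at 4 months. The 3-week value was the only call of the list at that age, and was lost without WT replicate 2 (adjusted p = 0.0795, edgeR) or 3 (0.0917). Socs3, a feedback inhibitor, had a log2 fold change of -1.70 at 8 months, or -1.08 without WT replicate 4. Pim1, a kinase induced by STAT signalling, was called lower at 8 months (-1.18), but without WT replicate 4 its value was 0.24 (adjusted p = 0.584, edgeR). Without that library 3 of the 16 genes were called higher and 5 lower, and of the CSF1R signalling genes 8 and 8.

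Patterns most like those of the members were ranked by Pearson's r of log2 CPM over the 22 libraries, among 10028 genes, as a description in which the points share genotype and depth. Gpr162 (r = 0.979), Sash1 (0.974) and Pld3 (0.973) came nearest to Csf1. Adgrg1 (0.981), Scamp5 (0.973) and Cx3cr1 (0.969) came nearest to Csf1r. For Csf2ra they were Rtcb (0.950), Inf2 (0.934) and H2-L (0.932), for Csf3r Msn (0.934) and Appl2 (0.918), and for Csf2rb 1600014C10Rik (0.917), Trim25 (0.913) and Rbpj (0.885).

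The WT ASO experiment compares lowered Mitf, Tfeb or Tfe3 with the ntc ASO in mice that have Sgsh, and its 3 comparisons share the ntc libraries. Csf1 was the only member called against ntc, and only under the Mitf ASO. Its values were 27.8, 26.3, 38.6 and 25.9 CPM with ntc in grp 1 to 4, and 46.8, 36.8, 46.5 and 48.8 CPM with the Mitf ASO. It was higher with the Mitf ASO in all 4 grps, although the highest ntc library lay above the lowest Mitf library. With PBS it had 44.3, 30.9, 24.9 and 32.2 CPM, so PBS and Mitf libraries overlapped.

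The log2 fold change of Csf1 under the Mitf ASO was 0.59 ± 0.15 (SE, adjusted p = 0.0180, edgeR), where 11% of genes and 1 of the 5 members were called. It was lost without grp in the model (adjusted p = 0.162), and without ntc replicate 1 (0.0726), ntc replicate 4 (0.0764), Mitf replicate 3 (0.0555) or Mitf replicate 4 (0.0575). Under the Tfeb ASO Csf1 had 44.4, 23.0, 27.8 and 28.7 CPM (log2 fold change 0.03, interval -0.29 to 0.36, 0.778% of genes called). Under the Tfe3 ASO it had 48.8, 30.4, 32.5 and 37.3 CPM (0.31, interval -0.01 to 0.63, 2.16% called). Compared directly, the Mitf ASO libraries were higher than the Tfeb ones by 0.55 ± 0.15 (adjusted p = 0.0507, past the threshold in 9 of 26 alternatives, 3.53% called) and than the Tfe3 ones by 0.28 ± 0.15 (adjusted p = 0.384, 3.76% called), neither past the threshold in the fit reported.

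The receptors did not pass against ntc under any of the 3 ASOs in WT mice. Csf1r had 13012 to 15742 CPM with ntc, 12463 to 14796 CPM with the Mitf, 13582 to 17828 CPM with the Tfeb and 13700 to 15474 CPM with the Tfe3 ASO. Its log2 fold changes were -0.08 (interval -0.17 to 0.01), 0.11 (0.02 to 0.20, adjusted p = 0.245) and -0.02 (-0.11 to 0.07). Csf2ra had 22.2 to 38.0 CPM with ntc and 27.2 to 41.6, 30.1 to 32.8 and 27.4 to 32.2 CPM with the Mitf, Tfeb and Tfe3 ASOs, with log2 fold changes of 0.26, 0.24 and 0.18. Without ntc replicate 3, the highest ntc library, its value under the Mitf ASO was 0.40 and passed (adjusted p = 0.0265). Csf2rb had log2 fold changes of 0.13, 0.10 and -0.17, and Csf3r of 0.08, 0.03 and 0.05. Csf3r followed grp instead: it lay between 515 and 582 CPM in grp 1 of all 5 treatments and between 333 and 439 CPM in the other grps. Between ntc and PBS 0 members and 0 of 10277 genes (0%) were called by edgeR, 415 genes had an unadjusted p under 0.05, and DESeq2 called 2 genes.

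Direct comparisons of the ASOs were added after the data were seen. The Mitf ASO against the Tfeb ASO and against the Tfe3 ASO each gave 1 call among 5 members tested. Of all genes, 3.53% and 3.76% were called in these comparisons. Csf1r was lower with the Mitf than with the Tfeb ASO by a log2 value of -0.18 ± 0.04 (SE, adjusted p = 0.0222), and Csf2rb higher with the Mitf than with the Tfe3 ASO by 0.30 ± 0.08 (adjusted p = 0.0452). Csf2rb had 139, 116, 143 and 138 CPM with the Mitf and 121, 106, 93.8 and 116 CPM with the Tfe3 ASO, and the groups overlapped. These calls held in 18 and 14 of 26 alternatives, with adjusted p up to 0.595 and 0.177, both without grp in the model. Of the lists, Tyrobp was higher under each of the 3 ASOs (0.51, 0.33 and 0.40), and Il3ra under the Mitf ASO (1.18 ± 0.28, adjusted p = 0.0106) and, in a call held in 9 of 26 alternatives, the Tfeb ASO (1.24 ± 0.28, adjusted p = 0.0464). The Tyrobp call under the Tfeb ASO held in 16 of 26, and under the Mitf ASO Il2rg was higher by 0.91 ± 0.14 (adjusted p = 0.000337). Without grp in the model the calls of Tyrobp under the Tfe3 ASO (adjusted p = 0.184) and the Tfeb ASO (0.551) and of Il3ra under the Mitf ASO (0.0508) and the Tfeb ASO (0.217) were lost. Il3ra levels in this set were 0.855 to 4.09 CPM. CSF1R signalling genes called under the Mitf ASO were 3 of 30, a share near the 11% of all genes: Tyrobp, Trem2 (0.29) and Mapk3 (0.16, held in 18 of 26 alternatives), all higher. The Trem2 call was lost without grp in the model (adjusted p = 0.177).

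**Figure D3:**
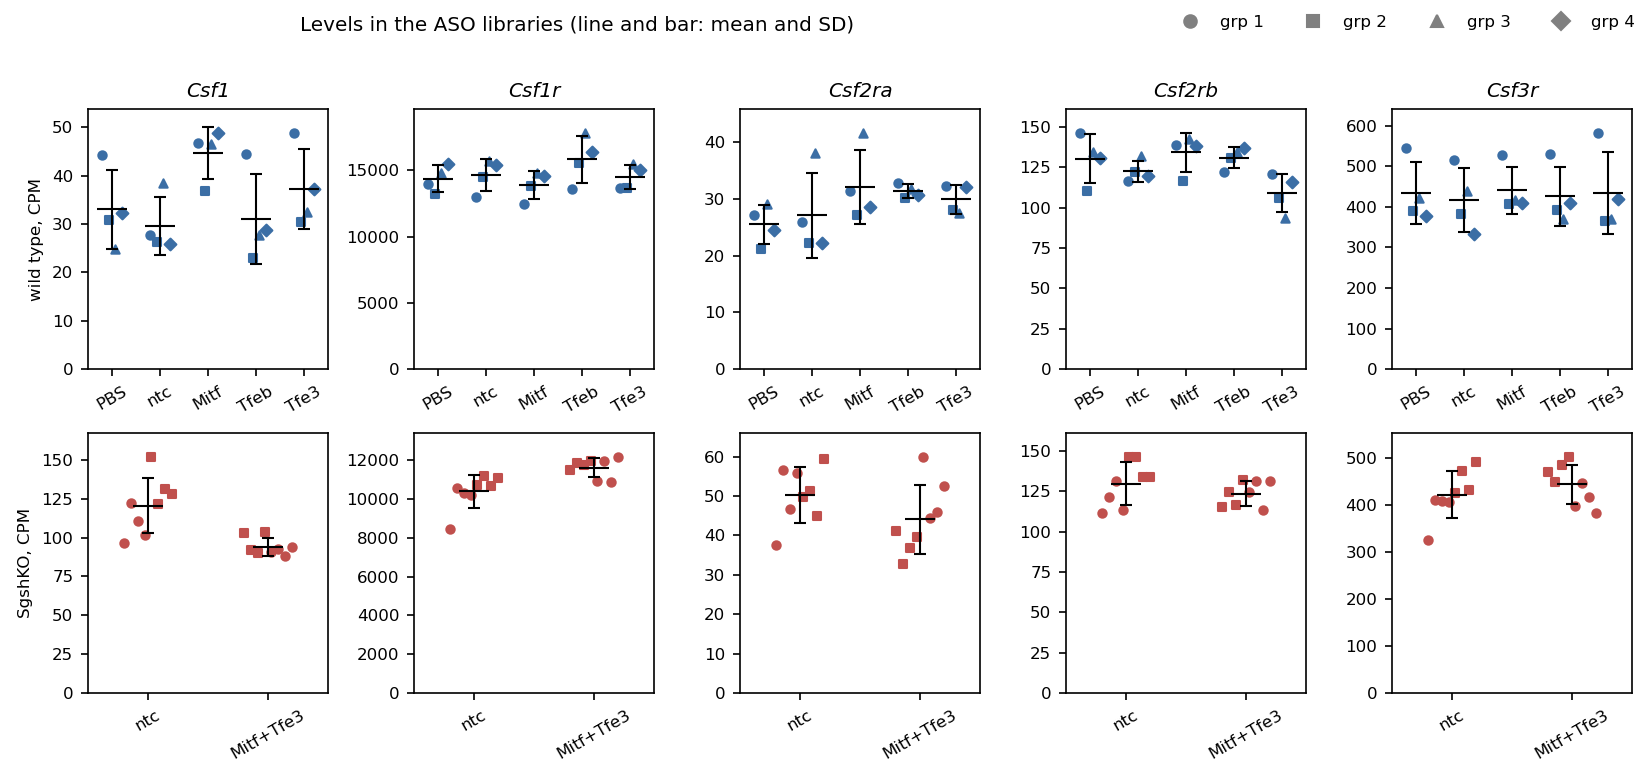
CPM of 5 members in every ASO library, WT above and SgshKO below, with a symbol for each grp and a line and bar for mean and SD. In SgshKO the Csf1 libraries of the combination sit between 88.1 and 103 CPM with 6 of 8 below the ntc range of 96.6 to 152 CPM.

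In SgshKO mice the combination of Mitf and Tfe3 ASOs asks whether the factors bear on expression in the knockout. Csf1 was lower with the combination and Csf1r slightly higher, each opposite in sign to its SgshKO difference in the age series. That series came from other libraries, and this set held no WT or untreated library, so a return toward WT levels was not tested. Among members not called, Csf2ra (-0.21) and Csf2rb (-0.07) were also opposite to their difference at the latest age, while Csf3r (0.07) was not. Tyrobp was higher in SgshKO and higher again with the combination (log2 fold change 0.28). In WT mice the Mitf ASO alone went with higher Csf1 (0.59). Csf1 ran from 96.6 to 152 CPM with ntc (median 122 CPM) and from 88.1 to 103 CPM with the combination (median 92.4 CPM). Within grp 1 the means were 108 and 91.4 CPM and within grp 2 133 and 97.1 CPM, and in neither grp did the treatments overlap, as held for 15.2% of all genes in grp 1 and 12.2% in grp 2. The log2 fold change was -0.35 ± 0.06 (SE, adjusted p = 0.00150, edgeR), where 9.33% of genes and 2 of the 5 members were called.

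Csf1r ran from 8464 to 11200 CPM with ntc (median 10622 CPM) and from 10880 to 12171 CPM with the combination (median 11794 CPM). Within each grp the treatments did not overlap, as held for 15.2% of all genes in grp 1 and 12.2% in grp 2. The log2 fold change was 0.16 ± 0.04 (SE, adjusted p = 0.0257, edgeR), and it was lost without grp in the model (adjusted p = 0.0564), on the batch-corrected signal (0.133), without ntc grp 2 replicate 3 (0.0530) and without combination grp 1 replicate 4 (0.0543). Of 10 microglia markers, 2 were called higher and 0 lower, beside 9.33% of all genes called. Their sum was 34088 to 36614 CPM with ntc and 32831 to 38397 CPM with the combination. Of 10 markers of border macrophages, cells that also express Csf1r, 2 are listed, Mrc1 and Siglec1. Both were called higher, and their sum was 121 to 191 CPM with ntc and 169 to 206 CPM with the combination. The part of either set in the result was not tested.

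The other receptors did not pass with the combination. Csf2ra had a log2 fold change of -0.21 (interval -0.43 to 0.02), and the treatments overlapped in grp 1 (means 49.2 and 50.7 CPM) and not in grp 2 (51.4 and 37.6 CPM, a log2 difference of -0.45). Csf2rb was split in the same way, with overlap in grp 1 and not in grp 2 (means of 140 CPM with ntc and 122 CPM with the combination). In grp 2 the treatments did not overlap for 12.2% of all genes, and whether the effect differed between grps was not tested. Grp 2 also stood apart in neutrophil markers (6 of 15 listed), which summed to 71.3 to 564 CPM in grp 2 and 0.996 to 42.3 CPM in grp 1, and in monocyte markers (2 of 10 listed), at 11.7 to 68.6 and 2.75 to 7.44 CPM, and their part was not tested. Over both grps Csf2rb was at -0.07 (interval -0.18 to 0.05) and Csf3r at 0.07 (interval -0.04 to 0.19). Of 30 CSF1R signalling genes 3 were called higher, among them Tyrobp (0.28) and Gab2 (0.28), and 1 lower, beside 9.33% of all genes, and of 15 tested JAK-STAT genes 0 were called. Il3ra was at -0.38 (adjusted p = 0.0562, edgeR), and passed with the replicate block (adjusted p = 0.0345), DESeq2 (0.0424) and the batch-corrected signal (0.00246).

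**Figure D4:**
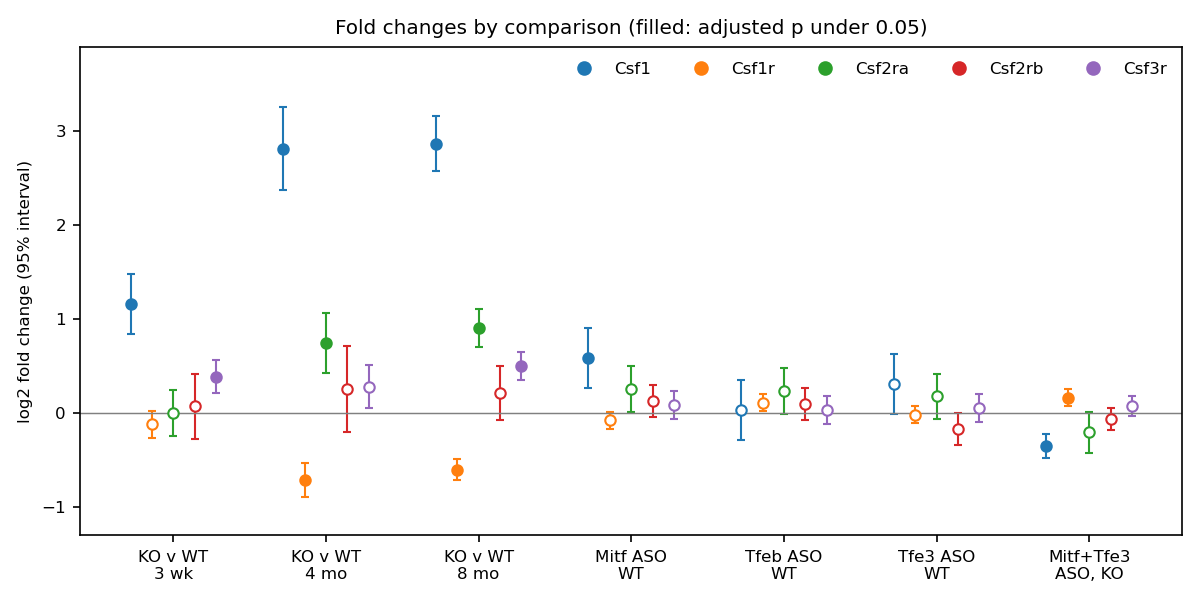
Log2 fold changes with 95% intervals for 5 members in 7 comparisons, filled where the adjusted p was under 0.05. Csf1 has the largest values, 1.16, 2.82 and 2.87 in SgshKO against WT, and lies at 0.59 under the Mitf ASO in WT and at -0.35 under the combination in SgshKO.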

How the data were processed

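PolyA RNA-seq of sorted microglia was used from 3 deposited count tables. The authors deposited raw counts and TPM for the age series, and raw counts and a batch-corrected signal, whose making is not given in the sources used here, for the ASO sets. The submitters' processing notes name STAR 2.5.3a, kallisto 0.44.0, HOMER 4.11, DESeq2 1.36.0, R 4.2.3 and build mm10, with no roles. Genes with low counts are not listed in the ASO tables (lowest mean count 7.05 and 39.25).

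Counts were tested per table with edgeR 4.0.16 (TMM, filterByExpr with a minimum count of 10, quasi-likelihood F test, Benjamini-Hochberg over all genes tested, threshold 0.05) in R 4.3.3, on 14309, 10277 and 10589 genes. SE is the log2 fold change divided by the root of F, and restates the test. The age model held 6 groups, and the ASO models treatment and grp. Alternatives were RLE factors, no filter, DESeq2 1.42.0, the replicate block or its removal, limma 3.58.1 on log2 of TPM or signal plus 1, and leaving out each library. The test was checked on simulated counts.

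Same-numbered libraries had r of -0.171 to 0.115 in the age series and 0.0839 to 0.612 in the SgshKO ASO set with grp means removed, so by the rule that every pair exceed 0.1 the number was no block there. In the WT ASO set grp equals the replicate number and was kept as titled, although its pairs (r of -0.0333 to 0.640) did not meet that rule. PBS replicate 4 is grp 4 by title and grp 3 by column name, and was put in grp 4 (mean r 0.429 against 0.188).

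All members were named, with up to 3 called genes of largest change per pathway list and comparison, and the 3 nearest patterns among genes with a mean of 5 CPM or more. Some genes that this rule names are not reported here. The members and lists were chosen with earlier results of these data known, and the GAGGAA motif after the sequences were seen. Promoters are RefSeq's, and 3 of 6 members were used. Csf1r, Csf2rb and Il34 have no sequence shown.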

Additional observations from a re-analysis of the deposited data

Results flagged for a closer look

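The effect of genotype differed between ages for 3 members by a test of the difference. Between 4 months and 3 weeks it was 1.65 for Csf1, -0.59 for Csf1r and 0.75 for Csf2ra on the log2 scale, and between 8 months and 3 weeks 1.71, -0.48 and 0.90 in the same order.

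The values of 1 member in 1 group of 4 to 10 libraries formed a set, and 51 sets were examined. In these, 7 values lay far from the rest of their set by Dixon's gap test, which by chance marks about 1 set in 20. WT replicate 4 at 8 months was the highest of its group in Csf2ra (166 CPM, next 133) and in Csf2rb (321 CPM, next 177). SgshKO replicate 3 at 8 months was the only one of its group with Il34 counts (0.227 CPM). In WT mice, ntc replicate 3 was high in Csf1 (38.6 CPM), and with the Mitf ASO replicate 2 was low in Csf2rb (116 CPM). Replicate 1 with the Mitf ASO was high in Csf3r (528 CPM), as grp 1 was under every WT treatment (515 to 582 CPM). In SgshKO mice, ntc grp 1 replicate 1 was low in Csf1r (8464 CPM).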

How the results depend on the processing

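Over the alternatives, 119 values of named genes were recomputed 3209 times: 3021 kept direction and side of the threshold, 98 lost and 24 gained the call, and 66 changed sign. Of the 66, 64 passed in neither fit and the others were Pim1 at 8 months (-1.18), which was 0.28 without the 2 libraries high in Csf2rb and -1.48 to 0.24 without 1 library, and the causes were not tested. Called differences of Csf1, Csf1r and Csf2ra between genotypes at 4 and 8 months held under every alternative run.

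The log2 fold changes with another sign were, for Csf2ra at 3 weeks, -0.0069 with RLE factors, -0.0071 with DESeq2, -0.0085 with the replicate block and -0.059 with TPM, and for Csf2rb summed with Csf2rb2 -0.14, -0.042 and -0.098 at the 3 ages. The change of the genotype effect on Csf2rb2 from 3 weeks to 4 months was 0.0040 with RLE factors, 0.0043 with DESeq2 and 0.018 with the replicate block, and to 8 months 0.084 with that block. From 4 to 8 months the block gave 0.075 for Csf2rb and 0.066 for Csf2rb2. Without the 2 libraries high in Csf2rb, chosen after seeing the data as was the sum, WT changes with age were -0.070 for Csf2rb and -0.088 for Csf2rb2, and changes of effect 0.097 for Csf2rb2 to 8 months from 3 weeks, and 0.15 and 0.12 for Csf2rb and Csf2rb2 from 4 months. On the batch-corrected signal, ntc against PBS gave -0.10 for Csf2ra, and the combination -0.028 for Csf2rb2.

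Fits without 1 library that spanned 0 ran, in SgshKO with age, from -0.0087 to 0.20 for Csf2rb2 and -0.0037 to 0.096 for Csf3r. In WT with age they ran from -0.074 to 0.29 for Csf2rb, -0.091 to 0.34 for Csf2rb2, -0.081 to 0.0021 for Csf3r and -0.37 to 0.096 for Il3ra. Between genotypes they ran from -0.095 to 0.068 for Csf2ra at 3 weeks and -0.0070 to 0.40 for Csf2rb at 4 months. Changes of effect ran from -0.082 to 0.31 for Csf2rb and -0.26 to 0.087 for Csf2rb2 (4 months, 3 weeks), -0.23 to 0.21 for Csf2rb2 (8 months, 3 weeks), and -0.11 to 0.29 for Csf1, -0.081 to 0.32 for Csf2ra, -0.21 to 0.22 for Csf2rb and -0.21 to 0.24 for Csf2rb2 (8 and 4 months). For ntc against PBS they ran from -0.33 to 0.0070 for Csf1, -0.0047 to 0.065 for Csf1r, -0.074 to 0.14 for Csf2ra and -0.13 to 0.015 for Csf3r. Against ntc they ran from -0.025 to 0.12 for Csf2rb2 (Mitf ASO), -0.027 to 0.010 for Csf1r and -0.021 to 0.12 for Csf3r (Tfe3 ASO), and -0.12 to 0.23 for Csf1, -0.057 to 0.088 for Csf2rb2 and -0.040 to 0.10 for Csf3r (Tfeb ASO).

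Counts of called genes that moved by over 1.5 times were, for the change of effect from 4 to 8 months (56), 131 with no filter, 168 with DESeq2, 21 with the replicate block and 89 without the 2 libraries. From 3 weeks to 4 months (361) they were 692 with DESeq2 and 634 without the 2 libraries. DESeq2 gave 213 for the Tfeb ASO (80), 403 for the Tfe3 ASO (222) and 2 for ntc against PBS (0). With no replicate block the Mitf, Tfeb and Tfe3 ASOs gave 211 (1128), 9 and 29, and with neither grp nor block the combination gave 452 (988). The replicate block gave 1011 for the combination, where 7 of 8 same-numbered pairs correlated best with their own number, a hint from the data that the labels do not state. Without 1 library the counts ran from 1441 to 3063 at 4 months, 664 to 1287 for WT with age, 100 to 699 and 4 to 125 for those 2 changes of effect, and 621 to 1465, 24 to 231 and 79 to 338 for the Mitf, Tfeb and Tfe3 ASOs. TPM moved the split at 8 months from 3090 higher and 2703 lower to 2069 and 4075, at 4 months from 1469 and 1325 to 1276 and 1864, at 3 weeks from 760 and 532 to 576 and 725, for SgshKO with age from 2222 and 2160 to 1707 and 2584, and for the change of effect from 3 weeks to 8 months from 856 and 467 to 657 and 639. With no replicate block the Mitf ASO gave 147 higher and 64 lower (593 and 535), and the Tfe3 ASO 25 and 4 (150 and 72).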
